A study of Mus musculus with 6 samples.

Results

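The cadherin superfamily holds the calcium-dependent adhesion proteins of the cell surface: classical cadherins, desmosomal cadherins, the giant Fat and Celsr proteins, and the protocadherins. Its genes were taken by symbol: Cdh, Pcdh and Celsr genes together with Fat1, Fat2, Fat3, Fat4, Dchs1, Dsg2 and Dsc2, without the Cdhr genes, and kept where the scanner software called a probe well above background on 2 or more of the 6 arrays. That left 65 members among 13380 genes tested, out of 103 superfamily genes in the RefSeq table. A probe on the array was matched to 73 of the 103; 8 of these (Cdh5, Cdh12, Cdh17, Cdh19, Cdh26, Dsg2, Pcdh15 and Pcdhb1) did not reach 2 arrays, and 30, among them Cdh9, Dchs1 and most isoforms of the alpha and gamma protocadherin clusters, had no matched probe.

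RNA came from P19, a mouse embryonal carcinoma line that turns into neurons and glia when it is aggregated with retinoic acid. AICD/P19 cells expressed AICD, the intracellular domain that gamma-secretase cuts from the amyloid precursor protein, and are called the AICD line below. The controls, pCDNA/P19, carried the empty vector and are called the vector line; the labels give 1 culture and induction protocol for both. Each line was hybridised undifferentiated (before induction), aggregated (4 days as aggregates in 5e-07 M all-trans retinoic acid) and differentiated (those 4 days followed by 2 days after replating), with 1 array for each line and state. The labels name neither the promoter that drives AICD nor whether a line is 1 clone. They do not state separate cultures for the arrays, and p-values therefore measure the spread between these arrays alone. With 1 array for each line and state, that spread comes from how unevenly the lines differ from state to state. It may be technical or a line effect that changes with the state, which cannot be told apart here. Either widens the standard error, so a failed test does not show that the lines are alike.

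Classical cadherins bind their own kind on the neighbouring cell and hold on to actin through catenins. E-cadherin (Cdh1) joins epithelial and embryonal carcinoma cells, and the neural plate is known for giving up E-cadherin and taking on N-cadherin (Cdh2). The clustered protocadherins lie in 3 neighbouring gene clusters, alpha, beta and gamma, from which single neurons choose a few isoforms as a surface identity, while Fat and Celsr proteins set the polarity of cells within a sheet.

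Values below are normalized log2 signals, the log2 of a probe's processed brightness minus the 75th percentile of its array, so that 0 lies at that percentile; differences between them are log2 differences, and the level of one gene's probe is not set against another's. Each triple of values runs in the order undifferentiated, aggregated, differentiated, and a value in square brackets was not well above background on its array. Where a gene was not well above background on any array of a group, its fold is a lower bound, taken from the lowest signal among probes that were well above background on the dim arrays or from the probe's own signal if that was higher, and written as at least N-fold. An adjusted p beside such a bound comes from the fit to the readings themselves, dim ones included, and does not test the bound. Between 62.0% and 65.9% of non-control spots were well above background per array, 0 were saturated, and the 75th percentile ran from 529 to 878. Both undifferentiated arrays lay on slide 1 and the other 4 on slide 2, so a difference between the undifferentiated and a later state cannot be told apart from a difference between slides. The embryonal carcinoma marker Pou5f1 read 6.37, -2.4 and -0.64 on the vector arrays and 6.48, 3.19 and 3.25 on the AICD arrays, and all 6 neuron markers examined (Tubb3, Map2, Stmn2, Elavl3, Dcx and Syt1) were well above background on all 6 arrays.

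Promoter sequence from RefSeq (build GRCm38.p6) was available for 24 of the 65 members. Shown are the 250 bases before the start of 5 genes outside the clustered loci: Pcdh10, Pcdh17 and Pcdh20, for which the lines lay far apart in at least 1 state, and Fat4 and Celsr3, which rose over the course. They were chosen with their values known. They lie at chr3:45378148-45378397 (plus strand, Pcdh10), chr14:84443313-84443562 (plus, Pcdh17), chr14:88471397-88471646 (minus, Pcdh20), chr3:38886690-38886939 (plus, Fat4) and chr9:108825795-108826044 (plus, Celsr3), are written 5′ to 3′ along the gene, and carry each CpG in capitals.

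Pcdh10: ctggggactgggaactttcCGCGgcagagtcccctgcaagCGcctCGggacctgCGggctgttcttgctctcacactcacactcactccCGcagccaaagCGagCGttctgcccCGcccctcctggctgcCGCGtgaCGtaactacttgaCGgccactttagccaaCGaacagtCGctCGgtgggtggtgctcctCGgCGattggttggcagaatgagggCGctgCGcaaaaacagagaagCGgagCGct
Pcdh17: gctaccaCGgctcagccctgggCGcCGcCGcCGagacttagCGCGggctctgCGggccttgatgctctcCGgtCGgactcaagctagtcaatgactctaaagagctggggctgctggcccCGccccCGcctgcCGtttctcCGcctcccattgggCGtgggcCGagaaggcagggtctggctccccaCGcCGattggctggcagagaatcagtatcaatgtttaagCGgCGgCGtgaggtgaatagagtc
Pcdh20: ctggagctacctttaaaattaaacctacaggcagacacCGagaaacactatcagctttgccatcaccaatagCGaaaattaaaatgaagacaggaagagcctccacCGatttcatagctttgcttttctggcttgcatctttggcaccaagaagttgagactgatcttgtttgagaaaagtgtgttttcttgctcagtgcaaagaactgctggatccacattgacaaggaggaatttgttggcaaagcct
Fat4: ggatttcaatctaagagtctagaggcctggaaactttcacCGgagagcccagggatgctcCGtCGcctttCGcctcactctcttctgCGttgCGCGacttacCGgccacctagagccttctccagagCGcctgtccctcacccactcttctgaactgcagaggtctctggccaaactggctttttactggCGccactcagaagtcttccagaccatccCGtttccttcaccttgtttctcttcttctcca
Celsr3: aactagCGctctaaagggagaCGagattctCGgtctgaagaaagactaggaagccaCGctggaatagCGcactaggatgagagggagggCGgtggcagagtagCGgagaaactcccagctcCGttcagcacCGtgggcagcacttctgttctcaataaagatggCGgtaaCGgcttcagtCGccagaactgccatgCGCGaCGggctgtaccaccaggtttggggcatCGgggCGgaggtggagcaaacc

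The windows of Pcdh10 and Pcdh17 hold 22 and 21 CpG, and 14.8% and 16.3% of all 32851 promoters of the same length have as many; the median promoter has 6. Celsr3 has 17 CpG (23.5% of promoters have as many), Fat4 has 11 (35.6%) and Pcdh20 has 3 (71%). Neither CAGGTG, the E-box that Snail and Zeb repressors bind, nor AGGTCA, the half-site of retinoic acid receptors, stood in any of the 5 windows on either strand; the 2 motifs do not overlap, and 17.2% and 14% of all promoters hold them. That says only that these letters are not in these windows.

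**Figure D1:**
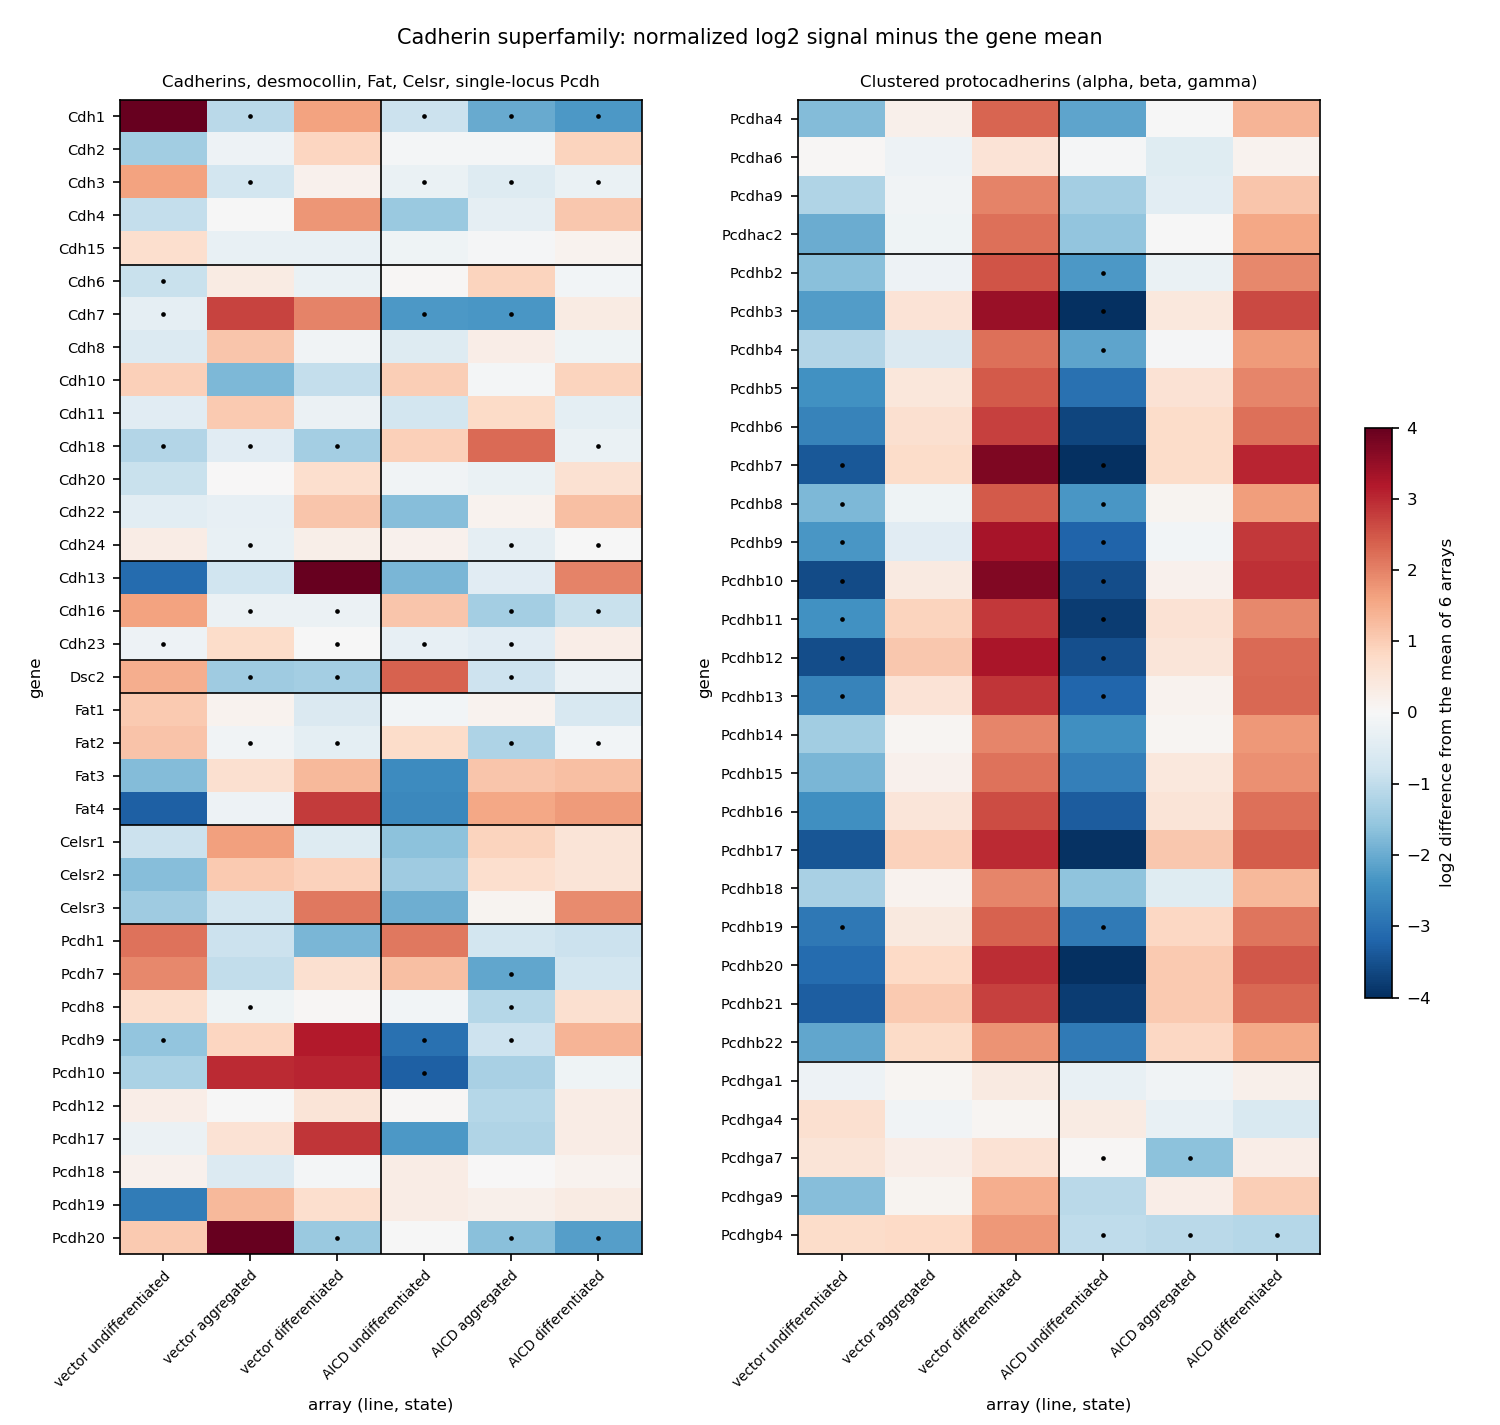
Normalized log2 signal of the 65 cadherin superfamily genes on the 6 arrays, each gene centred on its own mean; rows are genes grouped by family, columns are arrays (3 vector, then 3 AICD), the colour scale ends at 4 log2 units above and below the mean, and a dot marks a value not well above background. The beta-cluster protocadherins run from low to high across the 3 states in both lines, and Cdh1 is highest on the vector undifferentiated array.

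Most of the superfamily's calls were rises. From undifferentiated to aggregated, 35 members rose and 7 fell (limma, Benjamini-Hochberg adjusted p under 0.05), where 14.3% of all genes tested rose and 27.8% fell; the median difference was 1.37 over the members and -0.31 over all genes. From undifferentiated to differentiated, 38 members rose and 5 fell, against 20.1% and 41.3% of all genes, with medians of 2.62 and -0.44. With dim genes at their bounds, the members' medians were 1.04 and 2.62. With normexp background correction, chosen after seeing the data, they were 0.55 (25 members higher and 5 lower) and 1.54, and with no filter on dim probes the course median was 1.76 over 73 genes. From aggregated to differentiated no member and no gene at all passed (0.0% higher and 0.0% lower; the lowest adjusted p was 0.0534), while 38 members and 4341 genes had an unadjusted p under 0.05, and 53 of the 65 members had a positive difference (median 1.1 against -0.08 over all genes). This count of 0 became 1402 genes and 26 members with normexp background correction, and 733 genes and 14 members when only probes well above background on all 6 arrays were tested.

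The beta cluster held 20 of the 35 members that rose on aggregation and 21 of the 38 that rose over the course; outside it, 15 members rose and 7 fell on aggregation, and 17 rose and 5 fell over the course. A member could pass the filter through the states in which it is high, and 28 members did so on 2 to 5 arrays. Among the 37 that were well above background on all 6, 22 rose and 2 fell on aggregation, and 25 rose and 2 fell over the course. In these bulk RNA samples, fewer cells of a kind and less RNA per cell cannot be told apart. Scaling the arrays to one distribution (quantile normalization) moved the median of all genes from -0.31 to -0.12 for aggregation and from -0.44 to -0.24 for the course. The split of all genes on aggregation went from 1907 higher and 3726 lower to 2141 and 2684; the members then split into 33 higher and 5 lower. Leaving out either aggregated array left 0 genes past the threshold for the aggregation step, and leaving out the vector undifferentiated array left 25 members. With the aggregated arrays left out in turn, the members' median aggregation step was 1.49 without the AICD array and 1.52 without the vector array. Over all genes the medians were -0.31 and -0.29.

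Among the type I classical cadherins, E-cadherin (Cdh1) had the largest line estimate of the 65 members, but it did not pass the test. Cdh1 read -0.66, [-6.38] and -3.71 on the vector arrays and [-6.16], [-7.33] and [-7.62] on the AICD arrays. It was well above background on 2 of 3 vector arrays and on none of the AICD arrays, and the values of the 2 lines overlapped. In undifferentiated cells it lay at least 34.7-fold lower in AICD cells; after replating it lay at least 4.63-fold lower. Over the 3 states the line difference did not pass (at least 4.69-fold lower in AICD, adjusted p = 0.297), and within the vector line the signal lay at least 38.8-fold lower after aggregation. P-cadherin (Cdh3), which also joins epithelial cells, read -4.51, [-6.83] and -5.93 on the vector arrays and [-6.37], [-6.62] and [-6.37] on the AICD arrays. Like Cdh1 it was well above background on the vector undifferentiated and differentiated arrays only, and it lay at least 2.41-fold lower in undifferentiated AICD cells, with adjusted p = 0.608 over the 3 states.

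N-cadherin (Cdh2), the cadherin of the neural tube and of neurons, read 0.34, 1.52 and 2.6 on the vector arrays and 1.67, 1.67 and 2.63 on the AICD arrays. It rose by 1.61 ± 0.39 (adjusted p = 0.027) over the course, and the 2 lines stood 0.15 and 0.03 apart in the later states. In undifferentiated cells the AICD array lay 1.33 above the vector array. The step on aggregation in the AICD line, 0.0, stood beside 1.18 in the vector line, a difference that was not tested. R-cadherin (Cdh4), known from retina and brain, read -0.79, 0.16 and 1.93 on the vector arrays and -1.32, -0.18 and 1.25 on the AICD arrays. Cdh4 rose by 1.04 ± 0.17 (adjusted p = 0.0191) on aggregation and by 2.64 ± 0.17 (adjusted p = 0.00505) over the course, and the AICD array lay below the vector array in each state (-0.53, -0.34 and -0.68; adjusted p = 0.284). A dimmer Cdh4 probe, well above background on all 6 arrays, gave 1.25 on aggregation. The dimmest, well above background on 4 arrays, gave -0.68. With the mean of all probes the aggregation step no longer passed. M-cadherin (Cdh15), the cadherin of muscle precursors, was well above background on all 6 arrays and passed in no comparison (-4.49 to -3.53).

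**Figure D2:**
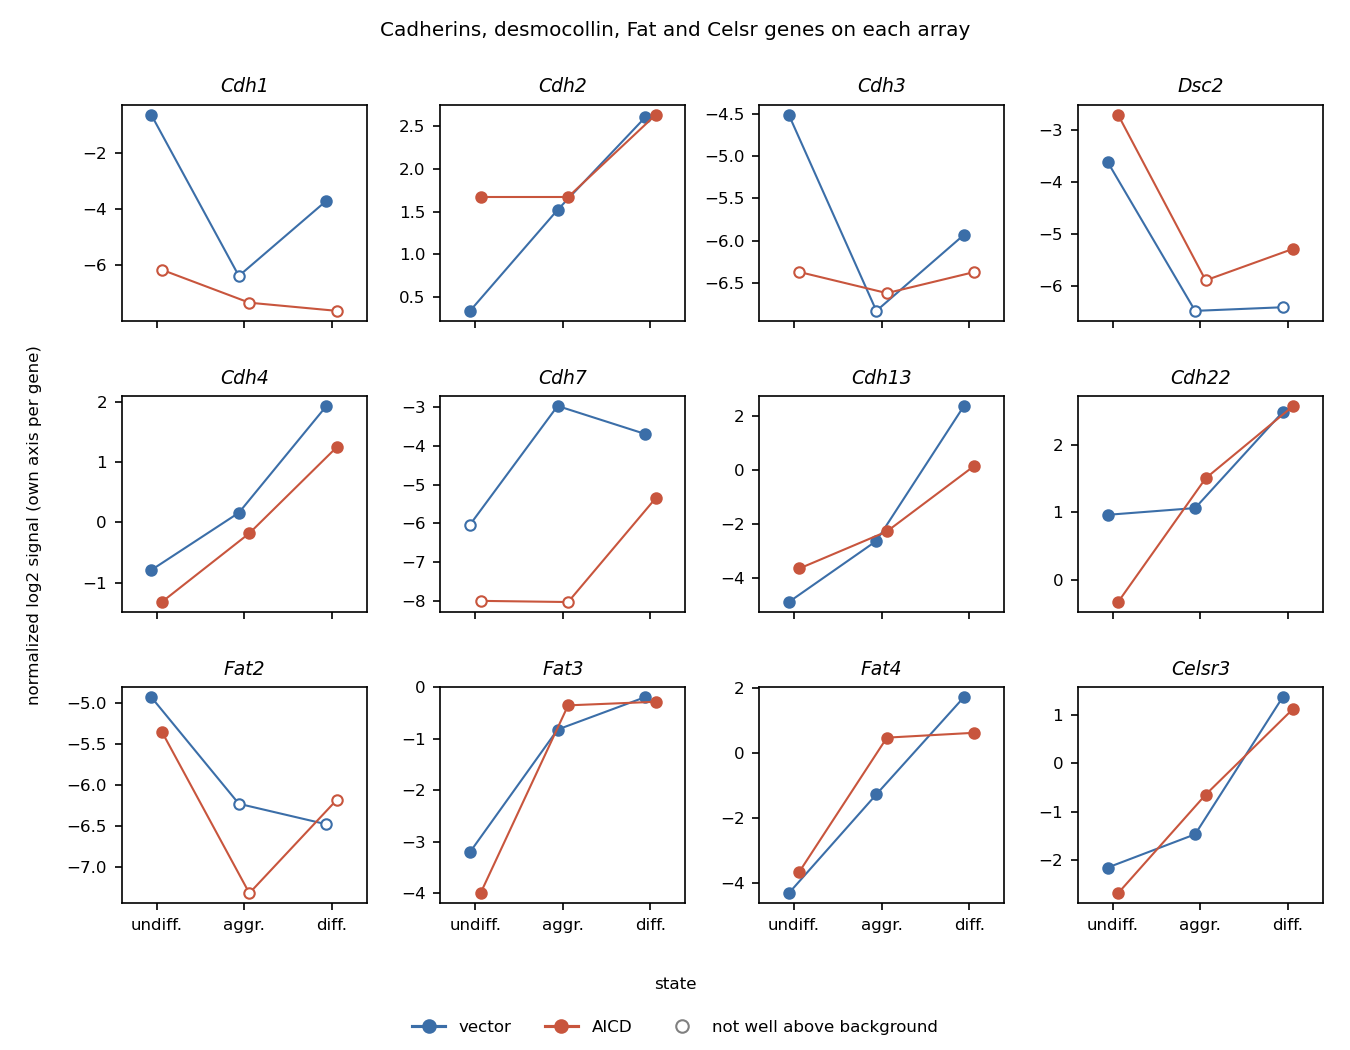
Normalized log2 signal of 12 cadherin, desmocollin, Fat and Celsr genes by state, with its own axis for each gene; blue points are the vector arrays, red points the AICD arrays, 1 array per point, and open points were not well above background. Cdh4, Fat3 and Celsr3 end higher than they began in both lines, Dsc2 and Fat2 are not well above background in aggregates, and Cdh1 separates the lines in undifferentiated cells (-0.66 against -6.16).

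The 9 type II classical cadherins, many of which mark groups of neurons, went in different directions: on aggregation 3 rose and 2 fell, and over the course 2 rose and none of the 9 fell. The shares over all genes were 14.3% higher and 27.8% lower on aggregation, and 20.1% and 41.3% over the course. Cdh6 read [-5.93], -4.7 and -5.29 on the vector arrays and -4.98, -4.13 and -5.15 on the AICD arrays. Cdh6 rose by 1.04 ± 0.25 (adjusted p = 0.0373) on aggregation. Cdh8 was highest in the aggregates of both lines, with -3.54, -1.89 and -3.13 on the vector arrays and -3.52, -2.72 and -3.16 on the AICD arrays. Cdh8 rose by 1.23 ± 0.28 (adjusted p = 0.0349). For neither gene did the course as a whole pass (adjusted p = 0.441 and adjusted p = 0.283). Cdh10 read -1.24, -3.97 and -3.14 on the vector arrays and -1.19, -2.28 and -1.3 on the AICD arrays. Cdh10 fell by 1.91 ± 0.51 (adjusted p = 0.0486) on aggregation. For Cdh10 the lines differed by 0.05 before aggregation, and the AICD array lay 1.69 and 1.84 higher in the later states, with 1.19 ± 0.42 (adjusted p = 0.391) over the 3 states. Cdh24 was near background throughout, at -5.42, [-6.01] and -5.49 on the vector arrays and -5.53, [-6.07] and [-5.74] on the AICD arrays. Cdh24 fell at least 1.29-fold (adjusted p = 0.0486) on aggregation.

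OB-cadherin (Cdh11), a cadherin of mesenchyme and osteoblasts, gave different pictures with different probes. The brightest probe read 2.26, 3.77 and 2.47 on the vector arrays and 1.98, 3.48 and 2.32 on the AICD arrays. It rose by 1.5 ± 0.15 (adjusted p = 0.0125) on aggregation, and the lines lay within 0.29 of each other in every state. A dimmer probe, also well above background on all 6 arrays, read -3.43, 0.49 and 1.9 on the vector arrays and -4.06, -1.1 and -0.84 on the AICD arrays. The third read -3.78, -0.01 and 1.31 on the vector arrays and -4.57, -1.63 and -1.57 on the AICD arrays. Both dimmer probes lay lower in the AICD line in each state, with gaps that were widest after replating (-2.74 and -2.88), and which probe reports Cdh11 transcript was not tested. Of the mesenchyme markers, whose part in this was not tested, 6 of 6 were well above background on each vector array and 6, 4 and 3 on the AICD arrays. Their summed level, on the log2 scale, was 1.42, 2.01 and 4.22 on the vector arrays and -0.03, -0.77 and -2.65 on the AICD arrays.

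Cdh7 was well above background on 1 AICD array and 2 vector arrays, at [-6.03], -2.98 and -3.7 on the vector arrays and [-7.99], [-8.02] and -5.35 on the AICD arrays. It lay at least 6.8-fold lower in AICD aggregates and lower by a log2 difference of -1.65 after replating. The estimate over the 3 states, -2.89 ± 0.77 (adjusted p = 0.287), did not pass. Cdh20 read -2.19, -1.27 and -0.62 on the vector arrays and -1.45, -1.57 and -0.69 on the AICD arrays. Cdh20 rose by 1.16 ± 0.31 (adjusted p = 0.0344) over the course. A second Cdh20 probe gave another course: its value went from -2.0 to -2.63 on the vector arrays and from -3.11 to -1.2 on the AICD arrays. Cdh22, a cadherin of brain and pituitary, read 0.96, 1.06 and 2.48 on the vector arrays and -0.33, 1.5 and 2.57 on the AICD arrays. It rose by 2.21 ± 0.48 (adjusted p = 0.0205) over the course. The difference lay mainly after replating in the vector line (1.41, against 0.11 on aggregation) and was spread over both steps in the AICD line (1.84 and 1.07). Cdh18 was well above background only on the undifferentiated and aggregated AICD arrays, at least 2.44-fold higher over the 3 states (adjusted p = 0.162).

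Outside the classical groups, T-cadherin (Cdh13), which is held in the membrane by a lipid anchor and has no cytoplasmic tail, read -4.89, -2.63 and 2.36 on the vector arrays and -3.65, -2.28 and 0.15 on the AICD arrays. Its signal rose by 5.53 ± 0.9 (adjusted p = 0.0116) over the course, most of it after replating (4.99 in the vector and 2.43 in the AICD line). The AICD array lay 1.24 above the vector array in undifferentiated cells and at -2.21 relative to it after replating. Cdh16, the kidney-specific cadherin, was well above background in undifferentiated cells only, at -3.99, [-5.83] and [-5.83] on the vector arrays and -4.48, [-6.96] and [-6.47] on the AICD arrays. Cdh16 fell at least 2.94-fold (adjusted p = 0.0127) on aggregation. Cdh23, the tip-link cadherin of hair cells, stayed near background, with 2 of 6 arrays well above it, and passed in no comparison. The desmosomal cadherin Dsc2, which ties epithelial cells to their neighbours at desmosomes, read -3.61, [-6.49] and [-6.42] on the vector arrays and -2.7, [-5.9] and -5.29 on the AICD arrays. It fell at least 6.43-fold (adjusted p = 0.00869) on aggregation. The epithelium markers Epcam, Krt8 and Krt18, 3 measured of 5 listed, all fell as well. Their summed log2 level lay between 0.97 and 1.54 in undifferentiated cells and between -2.61 and -1.84 on the later arrays, and their part in the Dsc2 difference was not tested; Cldn4 and Cldn6 did not reach 2 arrays.

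The 4 Fat genes, giant cadherins related to the fly tumour suppressor fat, split into 2 that rose and 1 that fell on aggregation, beside 14.3% and 27.8% of all genes. Fat4, which pairs with Dachsous cadherins and acts on growth and polarity, read -4.33, -1.28 and 1.72 on the vector arrays and -3.67, 0.47 and 0.62 on the AICD arrays. Fat4 rose by 3.6 ± 0.73 (adjusted p = 0.0282) on aggregation and by 5.17 ± 0.73 (adjusted p = 0.0093) over the course. In the AICD line nearly all of the difference lay in the first step (4.14, then 0.15), whereas the vector line gave 3.05 and then 2.99. The AICD array lay 1.75 above the vector array in aggregates and at -1.1 relative to it after replating. A second Fat4 probe gave 1.79 and -1.04. Fat3, known from retina and cerebellum, read -3.2, -0.82 and -0.19 on the vector arrays and -4.0, -0.35 and -0.28 on the AICD arrays. Fat3 rose by 3.01 ± 0.34 (adjusted p = 0.0132) on aggregation and the lines differed by at most 0.8 in any state; a dimmer Fat3 probe, well above background on all 6 arrays, gave a smaller step, 0.79. Fat2, a gene of cerebellar granule cells and skin, was at the edge of detection, at -4.93, [-6.23] and [-6.48] on the vector arrays and -5.35, [-7.32] and [-6.18] on the AICD arrays. Fat2 fell at least 1.63-fold (adjusted p = 0.0349) on aggregation. Fat1, which organises actin at cell edges, read 4.84, 3.92 and 3.2 on the vector arrays and 3.69, 3.94 and 3.16 on the AICD arrays, and passed in no comparison. Its course estimate was -1.09 ± 0.36 (adjusted p = 0.0594). The other kept Fat1 probe gave a course closer to level, from -1.53 to -2.09 in the vector line and from -2.23 to -2.02 in the AICD line.

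The Celsr genes encode flamingo cadherins, receptors at the core of planar cell polarity. Celsr1, typical of neural progenitors, peaked in aggregates, at 1.78, 4.3 and 2.14 on the vector arrays and 1.02, 3.53 and 3.16 on the AICD arrays. It rose by 2.52 ± 0.53 (adjusted p = 0.0305) on aggregation, and the second step was -2.16 in the vector and -0.37 in the AICD line. Celsr2 read -1.51, 1.24 and 1.11 on the vector arrays and -1.22, 0.86 and 0.71 on the AICD arrays. Celsr2 rose by 2.42 ± 0.24 (adjusted p = 0.0126). The second step was -0.13 in the vector and -0.15 in the AICD line. Of its 2 other probes one gave 2.6 for the aggregation step and the other -0.05, and which of them reports the transcript was not tested. Celsr3, needed for the great axon tracts of the forebrain, read -2.16, -1.47 and 1.37 on the vector arrays and -2.69, -0.65 and 1.13 on the AICD arrays. Celsr3 rose by 3.67 ± 0.38 (adjusted p = 0.00738) over the course, of which the aggregation step gave 1.37 ± 0.38 (adjusted p = 0.0524) and the replating step 2.31 ± 0.38 (adjusted p = 0.075).

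Of the 10 non-clustered protocadherins, 3 rose and 2 fell on aggregation, and 3 rose and 2 fell over the course. Among all genes tested 14.3% rose and 27.8% fell on aggregation, and 20.1% rose and 41.3% fell over the course. Pcdh10, which regulates axon growth and actin through the WAVE complex, read -3.68, 0.56 and 0.64 on the vector arrays and [-5.69], -3.72 and -2.6 on the AICD arrays. The AICD array lay lower in every state, at least 4.02-fold lower in undifferentiated cells and with log2 differences of -4.28 and -3.24 in aggregates and after replating. Over the 3 states the difference was -3.18 ± 0.48 (adjusted p = 0.121); another Pcdh10 probe, well above background on all 6 arrays, gave -2.89, and within the 2 states of slide 2 alone the line difference passed. Pcdh10 rose by 3.1 ± 0.58 (adjusted p = 0.0248) on aggregation. Pcdh17, found at synapses of the basal ganglia, read -2.76, -1.97 and 0.32 on the vector arrays and -4.85, -3.74 and -2.23 on the AICD arrays. All 6 arrays were well above background, the AICD array was lower in each state (-2.09, -1.77 and -2.54), and the difference over the 3 states, -2.13 ± 0.2 (adjusted p = 0.0567), came just short of the threshold. When only probes well above background on all 6 arrays were tested, the same value passed (adjusted p = 0.0469). Pcdh17 rose by 0.95 ± 0.24 (adjusted p = 0.0421) on aggregation and by 2.85 ± 0.24 (adjusted p = 0.00654) over the course.

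Pcdh9 read [-6.6], -4.14 and -1.83 on the vector arrays and [-8.01], [-5.84] and -3.64 on the AICD arrays. Its signal appeared during the course, at least 8.59-fold up in differentiated over undifferentiated cells (adjusted p = 0.00494). The AICD array lay lower in the later states, at least 3.04-fold lower in aggregates and with a log2 difference of -1.81 after replating. The line difference over the 3 states, -1.64 ± 0.14 (adjusted p = 0.0567), rests on 1 AICD and 2 vector arrays well above background. A second Pcdh9 probe gave -2.11 after replating. Pcdh7, the protocadherin whose activity shapes neurulation and axon outgrowth in frogs, read -1.76, -4.67 and -3.05 on the vector arrays and -2.48, [-5.77] and -4.43 on the AICD arrays. It fell by 3.11 ± 0.22 (adjusted p = 0.00917) on aggregation, and by 1.63 ± 0.22 (adjusted p = 0.00878) over the course. The AICD array was lower in each state, -1.07 ± 0.18 (adjusted p = 0.147) over all 3. A second Pcdh7 probe, well above background on 2 arrays only, gave -1.44 on aggregation and 0.17 over the course. Pcdh1 had the lowest course estimate of the 37 members well above background on all 6 arrays. It read 3.5, 0.44 and -0.52 on the vector arrays and 3.43, 0.58 and 0.46 on the AICD arrays. Pcdh1 fell by 2.96 ± 0.31 (adjusted p = 0.0129) on aggregation and by 3.5 ± 0.31 (adjusted p = 0.00695) over the course. Pcdh8, a paraxial mesoderm protocadherin that is also found at synapses, read -4.83, [-5.71] and -5.48 on the vector arrays and -5.64, [-6.68] and -4.9 on the AICD arrays and passed in no comparison.

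Pcdh20 read -4.32, -0.98 and [-6.84] on the vector arrays and -5.38, [-7.03] and [-7.56] on the AICD arrays. The vector aggregated array was the highest: the AICD aggregates lay at least 27.1-fold lower, and the vector line itself was at least 32.6-fold lower after replating. It passed in no comparison (adjusted p = 0.484 for the lines), and the highest value rests on 1 array. Pcdh19, which works together with N-cadherin and is mutated in a form of epilepsy, read -2.32, 1.78 and 1.15 on the vector arrays and 0.77, 0.7 and 0.81 on the AICD arrays. The AICD step on aggregation was -0.07 and the vector step 4.1. The AICD array lay 3.1 higher in undifferentiated cells and at -1.07 relative to the vector array in aggregates. A second Pcdh19 probe showed neither shift (0.19 between the lines in undifferentiated cells, -0.74 in aggregates), and which of the 2 probes reports the transcript was not tested. The line estimate, 0.56, became -0.71 within slide 2. Pcdh12, a protocadherin of endothelium and trophoblast, read -0.76, -1.05 and -0.51 on the vector arrays and -0.99, -2.17 and -0.75 on the AICD arrays and passed in no comparison. A second, dimmer Pcdh12 probe, well above background on 3 arrays only, gave another picture. Its AICD readings differed from the vector readings by 3.06, -1.21 and -3.83, dim ones included. Which Pcdh12 probe reports the transcript was not tested. Pcdh18 was well above background on all 6 arrays, between 0.05 and 0.89, and passed in no comparison.

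**Figure D3:**
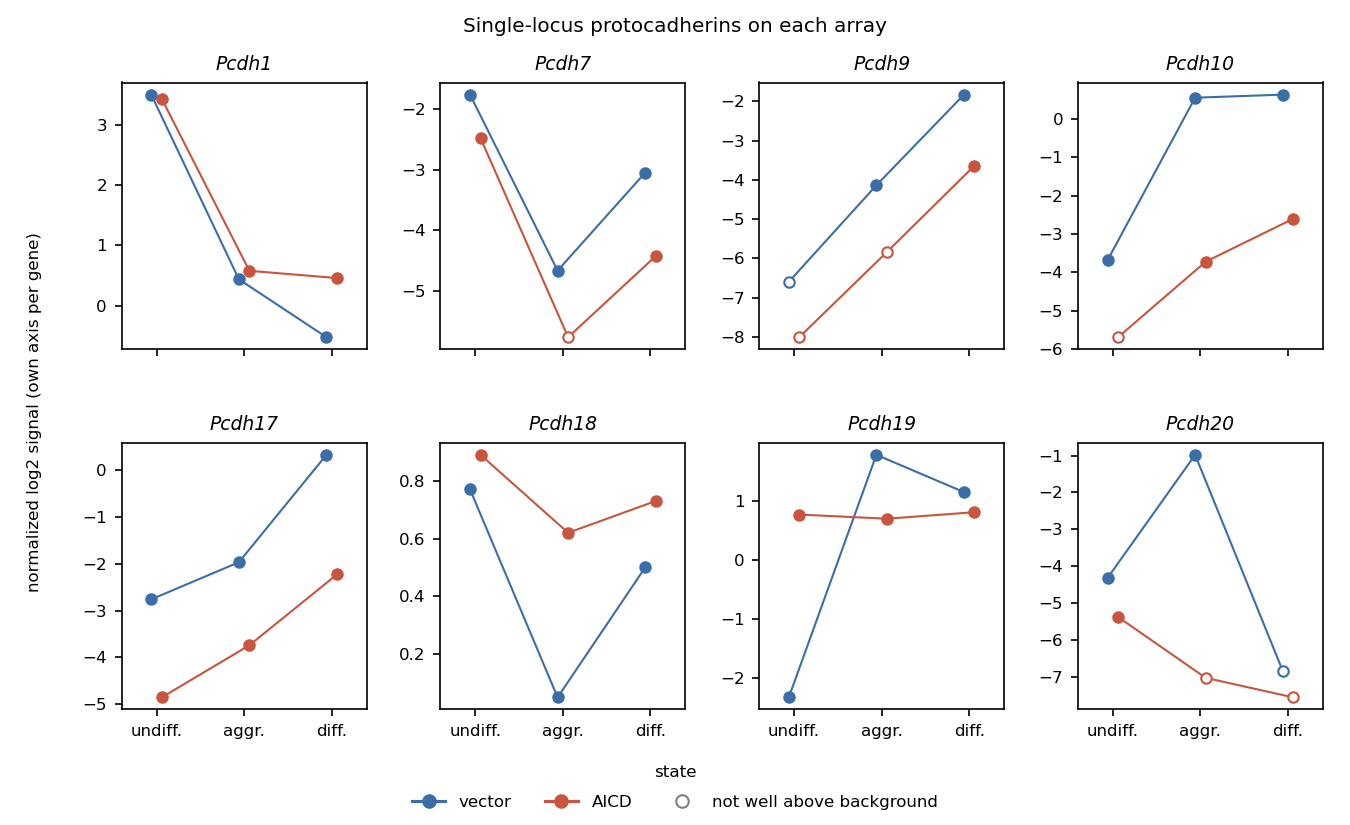
Normalized log2 signal of 8 single-locus protocadherin genes by state, with its own axis for each gene; blue points are the vector arrays, red points the AICD arrays, 1 array per point, and open points were not well above background. Pcdh10 and Pcdh17 lie lower in the AICD line in each state and Pcdh9 in the later states, Pcdh1 is lower after aggregation in both lines, and Pcdh20 peaks on the vector aggregated array (-0.98).

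In the alpha cluster, Pcdha4, Pcdha9 and the last, C-type isoform Pcdhac2 rose on aggregation and over the course. Pcdha6 passed in no comparison (-3.23 to -2.2). Pcdha4 read -4.26, -2.33 and -0.21 on the vector arrays and -4.65, -2.53 and -1.18 on the AICD arrays. Pcdha4 rose by 3.76 ± 0.25 (adjusted p = 0.00509) over the course. Values for Pcdha9 were -1.85, -0.8 and 1.34 on the vector arrays and -2.0, -1.06 and 0.45 on the AICD arrays. Pcdha9 rose by 2.82 ± 0.24 (adjusted p = 0.00679). Pcdhac2 stood at -0.84, 0.98 and 3.34 on the vector arrays and -0.42, 1.13 and 2.71 on the AICD arrays. Pcdhac2 rose by 3.66 ± 0.31 (adjusted p = 0.00654). Its steps in the vector and AICD lines were 1.82 and 1.55 on aggregation and 2.36 and 1.59 on replating, and its 2 other probes gave positive estimates at each step. After replating all 4 alpha members lay lower on the AICD array, with log2 differences from -0.98 to -0.39. Isoforms of the alpha and gamma clusters share their last exons, and neighbouring beta genes are close copies; the arrays' probe positions were not used here, so signal shared between isoforms cannot be told apart.

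The beta cluster, whose genes each encode a whole protocadherin in a single exon, moved in 1 direction: 20 of its 21 members rose on aggregation and all 21 over the course. The exception on aggregation, Pcdhb4, gave 1.31 ± 0.4 (adjusted p = 0.0641). The median estimate was 3.38 on aggregation and 5.48 over the course, or 2.59 and 4.24 with dim genes at their bounds. In undifferentiated cells 10 of the 21 were well above background on both arrays, 3 on the vector array alone and 8 on neither. On the 4 later arrays all 21 were. Those 8 passed the filter through the later arrays alone, so their direction was set by it. Among genes well above background on both arrays of this step, aggregates were higher for all 13 in the vector line (0.57 to 4.35). They were also higher for all 10 in the AICD line (1.1 to 5.26). The second step was positive for all 21 in both lines (1.05 to 3.74 in the vector line and 0.7 to 2.93 in the AICD line), with estimates from 0.87 to 3.34 (median 1.8) and adjusted p between 0.0534 and 0.111.

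Pcdhb2 read -5.66, -4.21 and -1.47 on the vector arrays and [-6.28], -4.27 and -2.09 on the AICD arrays. Pcdhb2 rose by 4.19 ± 0.22 (adjusted p = 0.00494) over the course. Pcdhb3 covered a wider range, -4.88, -2.1 and 0.81 on the vector arrays and [-7.46], -2.22 and 0.01 on the AICD arrays. Pcdhb3 rose by 6.58 ± 0.65 (adjusted p = 0.00722). Pcdhb4 read -4.75, -4.18 and -1.38 on the vector arrays and [-5.69], -3.64 and -1.88 on the AICD arrays. Pcdhb4 rose by 3.59 ± 0.4 (adjusted p = 0.00766). For these 3 the undifferentiated vector array was well above background and the AICD array was not, and the AICD array lay at least 1.09-fold, 1.86-fold and 1.91-fold lower. Pcdhb5 read -3.18, -0.28 and 1.72 on the vector arrays and -3.74, -0.18 and 1.2 on the AICD arrays. Pcdhb5 rose by 4.93 ± 0.23 (adjusted p = 0.00494). Next to it Pcdhb6 gave -3.14, 0.18 and 2.27 on the vector arrays and -4.14, 0.26 and 1.73 on the AICD arrays. Pcdhb6 rose by 5.64 ± 0.3 (adjusted p = 0.00494). Both were well above background on every array, and in both the AICD array was the lower one before aggregation (-0.56 and -1.0) and after replating (-0.52 and -0.53).

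The genes from Pcdhb7 to Pcdhb13 were dim in undifferentiated cells of both lines, and their folds are bounds. Pcdhb7 read [-6.13], -2.02 and 0.99 on the vector arrays and [-7.58], -2.02 and 0.29 on the AICD arrays. Pcdhb7 rose at least 89.1-fold (adjusted p = 0.00494) over the course. In Pcdhb8 the values were [-6.58], -4.96 and -2.33 on the vector arrays and [-7.11], -4.69 and -3.11 on the AICD arrays. Pcdhb8 rose at least 8.66-fold (adjusted p = 0.00604). Pcdhb9 stood at [-7.12], -5.22 and -1.48 on the vector arrays and [-7.98], -4.9 and -1.96 on the AICD arrays. Pcdhb9 rose at least 17.3-fold (adjusted p = 0.00494). Its replating step was 3.74 in the vector and 2.93 in the AICD line. Pcdhb10 had the highest bound of the cluster: it read [-5.81], -1.88 and 1.46 on the vector arrays and [-5.78], -2.05 and 0.69 on the AICD arrays. Pcdhb10 rose at least 117-fold (adjusted p = 0.00494). Pcdhb11 gave [-6.52], -3.21 and -1.29 on the vector arrays and [-7.91], -3.53 and -2.18 on the AICD arrays. Pcdhb11 rose at least 17.2-fold (adjusted p = 0.00494). At Pcdhb12 the arrays read [-7.9], -3.28 and -1.1 on the vector arrays and [-7.87], -3.87 and -2.09 on the AICD arrays. Pcdhb12 rose at least 18.9-fold (adjusted p = 0.00494). On the brightest probes these last 2 had the lowest AICD values after replating relative to the vector line within the cluster, -0.88 and -0.99. Pcdhb13 read [-7.25], -4.04 and -1.7 on the vector arrays and [-7.73], -4.43 and -2.28 on the AICD arrays. Pcdhb13 rose at least 14.4-fold (adjusted p = 0.00494). Between the lines a second, dimmer Pcdhb13 probe gave -1.16 after replating.

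The genes from Pcdhb14 onwards were, apart from Pcdhb19, well above background on all 6 arrays. Pcdhb14 read -4.52, -3.04 and -1.19 on the vector arrays and -5.57, -3.05 and -1.41 on the AICD arrays. Pcdhb14 rose by 3.74 ± 0.31 (adjusted p = 0.0064). For Pcdhb15 the arrays gave -4.44, -2.43 and -0.43 on the vector arrays and -5.35, -2.18 and -0.79 on the AICD arrays. Pcdhb15 rose by 4.28 ± 0.32 (adjusted p = 0.00605). Pcdhb16 read -3.93, -1.02 and 1.13 on the vector arrays and -4.83, -0.99 and 0.7 on the AICD arrays. Pcdhb16 rose by 5.29 ± 0.27 (adjusted p = 0.00494). A second Pcdhb15 probe gave smaller steps, 0.51 on aggregation and 1.42 after replating, and a second Pcdhb16 probe gave 1.86 after replating. Pcdhb17 read -4.53, -0.2 and 1.87 on the vector arrays and -5.08, -0.05 and 1.29 on the AICD arrays. Pcdhb17 rose by 6.39 ± 0.25 (adjusted p = 0.00494) over the course. Pcdhb18, with the smallest course estimate of the cluster, read -3.88, -2.43 and -0.64 on the vector arrays and -4.18, -3.08 and -1.28 on the AICD arrays. Pcdhb18 rose by 3.07 ± 0.18 (adjusted p = 0.00494). Pcdhb19, dim before aggregation, stood at [-7.04], -3.8 and -1.81 on the vector arrays and [-7.02], -3.36 and -2.04 on the AICD arrays. Pcdhb19 rose at least 15.1-fold (adjusted p = 0.00494). Pcdhb20 read -3.85, 0.0 and 2.18 on the vector arrays and -4.99, 0.27 and 1.69 on the AICD arrays. Pcdhb20 rose by 6.35 ± 0.38 (adjusted p = 0.00494). In Pcdhb21 the values were -3.1, 1.24 and 2.93 on the vector arrays and -3.6, 1.25 and 2.5 on the AICD arrays. Pcdhb21 rose by 6.06 ± 0.2 (adjusted p = 0.00494). Pcdhb22 read -1.87, 0.96 and 2.01 on the vector arrays and -2.63, 1.02 and 1.71 on the AICD arrays. Pcdhb22 rose by 4.12 ± 0.25 (adjusted p = 0.00494). The second step of Pcdhb22 was 0.87 ± 0.25 (adjusted p = 0.111), the smallest of the cluster. In each of these 9 genes the 2 differentiated arrays lay above the 2 aggregated arrays, and those above the 2 undifferentiated arrays. With only 2 arrays per state such an order is frequent. Of all 13380 genes, 3585 had both aggregated arrays above both undifferentiated ones. For 3545 genes both differentiated arrays lay above both aggregated ones.

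**Figure D4:**
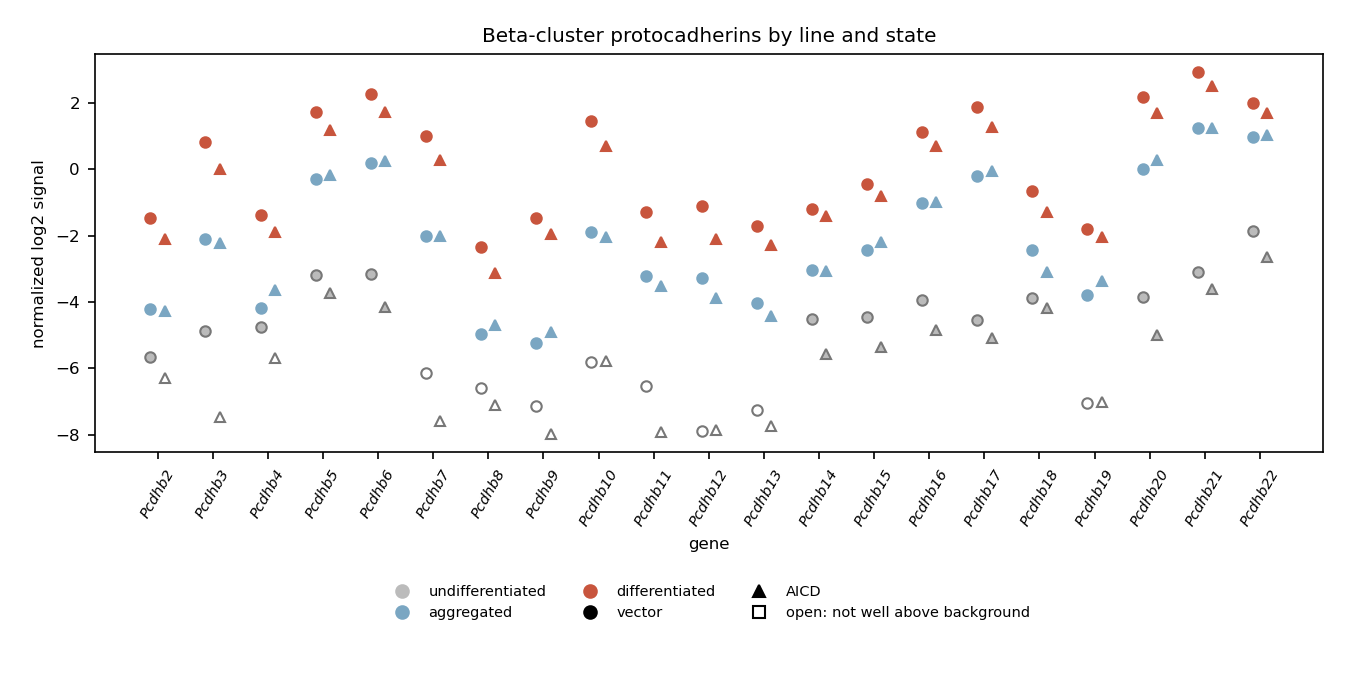
Normalized log2 signal of the 21 beta-cluster protocadherin genes; circles are vector arrays, triangles AICD arrays, grey the undifferentiated, blue the aggregated and red the differentiated state, 1 array per point, and open points were not well above background. For each gene the 3 states form separate tiers, and in the differentiated tier the AICD point lies below the vector point in all 21 genes. Of all 13380 genes, 3585 rise without overlap on aggregation and 3545 on replating.

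In the gamma cluster 1 of 5 members rose on aggregation (14.3% of all genes), and 2 rose and 1 fell over the course (20.1% and 41.3% of all genes). Pcdhga9 read 1.51, 3.32 and 4.68 on the vector arrays and 2.14, 3.49 and 4.2 on the AICD arrays. Pcdhga9 rose by 2.62 ± 0.31 (adjusted p = 0.00786) over the course. For this difference 2 other probes well above background on all 6 arrays gave 2.19 and 1.99. Pcdhga1 stayed within a narrow band, at -4.33, -4.05 and -3.77 on the vector arrays and -4.42, -4.25 and -3.92 on the AICD arrays. Pcdhga1 rose by 0.53 ± 0.15 (adjusted p = 0.0377), which became -0.02 with normexp background correction. Pcdhga4 read -1.58, -2.35 and -2.14 on the vector arrays and -1.89, -2.52 and -2.81 on the AICD arrays. Pcdhga4 fell by 0.74 ± 0.19 (adjusted p = 0.0326) over the course. Pcdhga7 was well above background on 4 arrays and passed in no comparison. Pcdhgb4 separated the lines in every state: it read -4.55, -4.48 and -3.56 on the vector arrays and [-6.31], [-6.38] and [-6.44] on the AICD arrays. All 3 vector arrays lay above all 3 AICD arrays, none of which was well above background, and the signal was at least 3.07-fold lower in AICD (adjusted p = 0.0933). Its course estimate was 0.42 ± 0.34 (adjusted p = 0.325).

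The line comparison addresses which cadherin genes differ between AICD/P19 and pCDNA/P19 cells over the 3 states. No member passed (limma with the state as a block, 3 arrays for each line). Of all genes 0.209% passed as higher and 0.142% as lower in AICD. In the same limma fit 15 of the 65 members and 1673 of all 13380 genes had an unadjusted p under 0.05. The lowest adjusted p was 0.0567, for Pcdh9 and Pcdh17, followed by Pcdhgb4 (0.0933) and Pcdh10 (0.121), all lower in the AICD line. Of the 65 estimates 52 were negative, with a median of -0.34 against 0.0 over all genes; among the 37 members well above background on all 6 arrays 28 were negative, with a median of -0.26. All AICD arrays lay above all vector arrays for 1 member, Cdh18 (2.36% of all genes), and below them for 1, Pcdhgb4 (2.76%). For Cdh18 the vector arrays and the AICD differentiated array were not well above background, so the order of those 4 readings carries no information. Members share loci and sequence, 30 of them lying in the 3 clusters, so they are not independent of each other.

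Within a state the comparison rests on 1 array per line and has no test. In undifferentiated cells 44 members were well above background on both arrays, and of these 3 stood 2-fold or more above and 6 stood 2-fold or more below the vector array. Of all genes 4.21% and 4.1% did. The 3 were Pcdh19, Cdh2 and Cdh13, and the 6 were Pcdh17, Cdh22, Fat1, Pcdhb20, Pcdh20 and Pcdhb14. In aggregates 2 of 50 members, Fat4 and Cdh10, stood that far above (4.21% of all genes) and 4, Pcdh10, Pcdh17, Pcdh12 and Pcdh19, that far below (3.12%). After replating 2 of 55, Cdh10 and Celsr1, stood that far above (4.6% of all genes) and 7 that far below (3.96%): Pcdh10, Pcdh17, Cdh13, Pcdh9, Cdh7, Pcdh7 and Fat4. The median member difference was -0.41, 0.01 and -0.47 in the 3 states in turn, beside -0.06, 0.03 and 0.01 over all genes. In the beta cluster the AICD array was lower for all 10 measured genes before aggregation (median -0.83), for 8 of 21 in aggregates (median 0.03) and for all 21 after replating (median -0.53, range -0.99 to -0.22). On the brightest probes none of the 21 reached 2-fold after replating, and 2 of the 10 did before aggregation. A dimmer Pcdhb13 probe gave -1.16 after replating, and the other dimmer beta-cluster probes gave -0.72 to -0.19. The summed log2 level of the 6 neuron markers, whose part in the beta-cluster differences was not tested, was 3.53 in the vector and 3.64 in the AICD line before aggregation, 5.39 and 6.01 in aggregates, and 7.33 and 6.9 after replating.

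**Figure D5:**
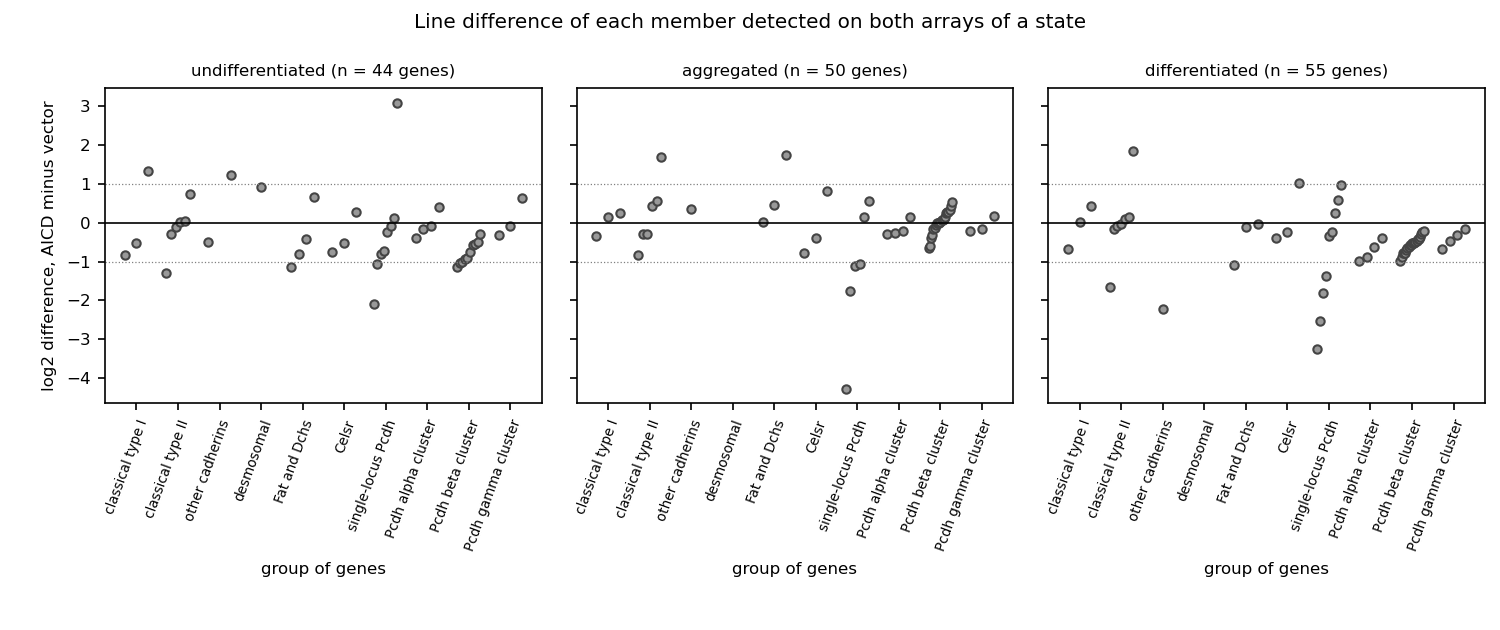
Log2 difference between the lines (AICD minus vector) in each state for the members well above background on both arrays of that state, by gene group; each point is 1 gene measured on 1 array per line, and dotted lines mark 2-fold. The beta-cluster points lie below 0 in the undifferentiated and differentiated panels and on both sides of it in the aggregated panel, and Pcdh10 is the lowest point in aggregates (-4.28) and after replating (-3.24).

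Cadherins work through catenins and plaque proteins, and 14 of the 18 listed were measured. On aggregation 1 rose and 1 fell (14.3% and 27.8% of all genes), and over the course 4 rose and 5 fell (20.1% and 41.3%). The neural alpha-catenin Ctnna2 read -0.83, 0.47 and 3.69 on the vector arrays and 0.2, 2.03 and 3.71 on the AICD arrays. Ctnna2 rose by 1.56 ± 0.42 (adjusted p = 0.0471) on aggregation and by 4.02 ± 0.42 (adjusted p = 0.00738) over the course. The brain delta-catenin Ctnnd2 rose by 2.68 ± 0.32 (adjusted p = 0.00795), plakoglobin (Jup) by 2.09 ± 0.27 (adjusted p = 0.00866) and the beta-catenin inhibitor Ctnnbip1 by 0.88 ± 0.22 (adjusted p = 0.0286). Alpha-E-catenin (Ctnna1) fell by 0.73 ± 0.19 (adjusted p = 0.034), vinculin (Vcl) by 2.45 ± 0.37 (adjusted p = 0.0102), plakophilin 2 (Pkp2) by 3.09 ± 0.67 (adjusted p = 0.0211), Pkp4 by 1.45 ± 0.16 (adjusted p = 0.00754) and Plekha7 by 1.17 ± 0.29 (adjusted p = 0.0284). On aggregation Pkp4 fell by 0.74 ± 0.16 (adjusted p = 0.0302), and Vcl gave -1.29 ± 0.37 (adjusted p = 0.0552). The largest replating steps were -2.6 ± 0.67 (adjusted p = 0.0993) for Pkp2 and 2.45 ± 0.42 (adjusted p = 0.075) for Ctnna2. Beta-catenin (Ctnnb1) read 4.32, 4.32 and 3.95 on the vector arrays and 4.61, 4.31 and 4.18 on the AICD arrays and passed in no comparison. Between the lines none of the 14 passed, the largest estimates being 0.87 ± 0.34 (adjusted p = 0.421) for Ctnna2 and 0.71 ± 0.3 (adjusted p = 0.455) for Vcl.

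All 6 listed repressors of cadherin transcription were measured. Snai2 (Slug) read 0.35, -0.88 and -0.12 on the vector arrays and -2.41, -5.06 and -5.4 on the AICD arrays. It lay lower in the AICD line in each state (-2.77, -4.18 and -5.28), and the difference over the states, -4.07 ± 0.52 (adjusted p = 0.0952), did not pass. Snai2 gave -1.94 ± 0.64 (adjusted p = 0.075) on aggregation and -1.73 ± 0.64 (adjusted p = 0.0791) over the course. Twist1 read 0.07, -0.25 and -0.71 on the vector arrays and -1.72, -2.88 and -3.04 on the AICD arrays, with -2.25 ± 0.21 (adjusted p = 0.058) between the lines. Zeb1 rose by 1.48 ± 0.22 (adjusted p = 0.0174) and Zeb2 by 0.69 ± 0.17 (adjusted p = 0.0406) on aggregation. Over the course Zeb1 rose by 1.12 ± 0.22 (adjusted p = 0.0166), Zeb2 by 1.03 ± 0.17 (adjusted p = 0.0118) and Snai1 by 0.98 ± 0.21 (adjusted p = 0.0209), and Twist1 fell by 1.05 ± 0.26 (adjusted p = 0.028). On replating the largest estimates were 0.44 ± 0.21 (adjusted p = 0.232) for Snai1 and -0.36 ± 0.22 (adjusted p = 0.319) for Zeb1. Snai2, Twist1 and Snai1 lay lower on all 3 AICD arrays than on the vector array of the same state. For Snai1 the differences were -0.64, -0.39 and -1.02. Twist2 also read lower in each state, but its later AICD readings were not well above background. Snai1, Twist2, Zeb1 and Zeb2 gave line estimates of -0.69, -0.89, -0.1 and 0.06, none of which passed. Cdh1, the classical target of these repressors, was not well above background on any AICD array, and their part in the Cdh1 difference was not tested.

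Of the 9 proteases and gamma-secretase subunits that cut cadherins or release their tails, 7 were measured. None passed between the lines, the largest estimates being 0.45 ± 0.15 (adjusted p = 0.374) for Adam9 and 0.27 ± 0.12 (adjusted p = 0.462) for Aph1a. The subunit Aph1b rose by 1.57 ± 0.23 (adjusted p = 0.0172) on aggregation and presenilin 2 (Psen2) fell by 1.39 ± 0.31 (adjusted p = 0.0344); over the course Aph1b rose by 2.3 ± 0.23 (adjusted p = 0.00728) and the sheddase Adam17 fell by 0.65 ± 0.19 (adjusted p = 0.0449). Psen2 gave -0.99 ± 0.31 (adjusted p = 0.0547) over the course, and on replating Aph1b gave 0.73 ± 0.23 (adjusted p = 0.128) and Adam17 -0.59 ± 0.19 (adjusted p = 0.132). Of the partners of Celsr and Fat proteins in planar polarity, 10 of 11 were measured. On aggregation Fzd3 rose by 2.16 ± 0.23 (adjusted p = 0.0129), Vangl2 by 1.67 ± 0.16 (adjusted p = 0.0119) and Dvl1 by 0.65 ± 0.16 (adjusted p = 0.041), while Fzd6 fell by 1.32 ± 0.34 (adjusted p = 0.0441) and Vangl1 by 0.99 ± 0.24 (adjusted p = 0.0381). Fzd3 and Vangl2, known for acting with Celsr3 in axon guidance, rose also over the course, by 1.78 ± 0.23 (adjusted p = 0.00841) and 0.96 ± 0.16 (adjusted p = 0.0116), and Dvl1 by 0.87 ± 0.16 (adjusted p = 0.0149). Fzd6 fell by 2.3 ± 0.34 (adjusted p = 0.00989) over the course and Vangl1 by 1.72 ± 0.24 (adjusted p = 0.00908). Over the course Fjx1 also rose, by 1.09 ± 0.33 (adjusted p = 0.0477), and Dvl2 fell by 0.51 ± 0.15 (adjusted p = 0.046). Prickle1 had the largest line estimate of this list, 0.91 ± 0.63 (adjusted p = 0.634), followed by Fzd6 with 0.77 ± 0.28 (adjusted p = 0.399). Prickle1 gave -2.18 ± 0.77 (adjusted p = 0.0855) on aggregation and 1.4 ± 0.77 (adjusted p = 0.279) on replating, and Fzd6 -0.98 ± 0.34 (adjusted p = 0.144) on replating.

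The 7 listed regulators of the protocadherin clusters were all measured. CTCF (Ctcf), which with cohesin loops cluster promoters to their enhancers, read 3.35, 2.85 and 2.67 on the vector arrays and 3.19, 2.86 and 2.61 on the AICD arrays. It fell by 0.63 ± 0.15 (adjusted p = 0.0256) over the course. The cohesin subunits Rad21 and Smc3 passed in no comparison, nor did Smchd1 or Setdb1; on replating Rad21 gave -0.56 ± 0.15 (adjusted p = 0.105) and Smc3 -0.4 ± 0.16 (adjusted p = 0.178). Dnmt3b, the DNA methyltransferase that methylates cluster promoters, read 5.26, -1.1 and -1.43 on the vector arrays and 4.27, 0.49 and 1.31 on the AICD arrays. It fell by 5.07 ± 0.96 (adjusted p = 0.0251) on aggregation and by 4.83 ± 0.96 (adjusted p = 0.0171) over the course. It lay 1.59 and 2.74 higher on the AICD array in the later states, with 1.11 ± 0.78 (adjusted p = 0.643) over all 3, and Rad21 gave 0.15 ± 0.13 (adjusted p = 0.698) between the lines. Wiz rose by 0.56 ± 0.15 (adjusted p = 0.0479) on aggregation. Of the nectins, adhesion proteins that assemble with cadherins at junctions, 3 of 4 were measured. Nectin2 fell by 1.33 ± 0.17 (adjusted p = 0.015) and Nectin3 by 1.36 ± 0.32 (adjusted p = 0.037) on aggregation, and over the course by 1.29 ± 0.17 (adjusted p = 0.00873) and 1.88 ± 0.32 (adjusted p = 0.0125). Nectin1 passed in no comparison, with 1.58 ± 0.43 (adjusted p = 0.105) on replating and -0.34 ± 0.35 (adjusted p = 0.765) between the lines; Nectin2 gave 0.67 ± 0.14 (adjusted p = 0.205) between the lines and Nectin3 -0.51 ± 0.32 (adjusted p = 0.324) on replating. Medians of the 6 partner lists ran from -1.33 to 0.07 on aggregation and from -1.29 to 0.07 over the course.

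Levels of cell type markers are given beside these genes, and their part in the results was not tested. The 4 measured pluripotency markers (Pou5f1, Utf1, Dppa5a and Tdgf1) had a summed log2 level of 6.5 and 6.56 in undifferentiated vector and AICD cells. The sums were -0.79 and 3.25 in aggregates, and 0.06 and 3.3 after replating. Pou5f1 alone read 3.19 and 3.25 on the later AICD arrays, close to the sums there. In aggregates and after replating, the AICD array differed from the vector array by -0.03 and 0.56 for Utf1. For Dppa5a the differences were -0.36 and -0.54. Tdgf1 read -5.42 and [-6.19] on the later vector arrays and -3.74 and -5.31 on the later AICD arrays. Nanog and Zfp42 were not measured: of the 6 listed pluripotency markers 5 had a matched probe, and 4 reached 2 arrays. Of the glia list 3 of 4 were measured, with a summed log2 level from 3.05 to 5.97; over the course 1 rose, the progenitor marker Fabp7, and 2 fell, and Gfap did not reach 2 arrays. For 3 of 5 endothelium markers the summed log2 level ran from -3.8 to -2.8. It ran from -2.03 to -0.96 for 4 of 6 endoderm markers and from -1.07 to 1.63 for 3 of 4 neural crest markers. Pecam1, Tie1, Afp and Ttr did not reach 2 arrays, and Sox10 had no matched probe. The 2 measured muscle and heart markers of 4 listed, Actc1 and Nkx2-5, went from a summed log2 level of 2.43 and 1.74 in undifferentiated cells to 0.74 and -0.76 after replating, in the vector and AICD lines.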

How the data were processed

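Cy3-labelled cRNA from 6 total RNA samples of P19 cells was hybridised to 6 single-colour Agilent arrays, 1 per line and state. Per the file headers and the submitters' processing notes, the deposited intensities are Agilent Feature Extraction 10.1.1.1 output: background-subtracted processed signals, not normalized between arrays, from 45018 spots, of which 1639 are controls. Outlier spots were treated as missing, and 27 probes that then lacked a value were left out. Signals were set to log2 minus each array's 75th percentile. Probes were named through their RefSeq accession (24844 of 41174 matched, table GRCm38.p6), kept where well above background on at least 2 of 6 arrays, and reduced to the brightest probe per gene, which left 13380 genes.

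limma 3.58.1 in R 4.3.3 was fitted over all genes with terms for state and line (2 residual degrees of freedom); adjusted p is Benjamini-Hochberg, two-sided, with a threshold of 0.05, and ± is the standard error. Adjusted p-values are from this limma fit unless another setting is named beside them; the fitting code was tested on simulated data. The number of arrays limits the precision. Differences within a state or line rest on 1 array each and have no test.

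All members were accounted for. Values on all arrays were given for set genes where kept (Cdh1, Cdh2, Cdh3, Celsr1, Celsr2, Celsr3, Fat1, Fat2, Fat3, Fat4, Dchs1, Dsg2 and Dsc2), for members past the threshold, for the 6 with the largest estimates in each comparison among those well above background on all its arrays, and for members detected in all arrays of a line or state and none of the other; partner genes were named where past the threshold or among the 2 largest of their list per comparison. Other members and genes named with values were chosen after those were seen. Members and lists were chosen with earlier results of these data known. Alternatives were quantile scaling, other filters, the mean of probes, arrays left out, slide 2 alone and no state term; normexp correction, planned on the mean signal, was run on the median signal, a change made after the files were seen, as was reading each further probe of a gene on its own. The authors' value table was not used here.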

Additional observations from a re-analysis of the deposited data

Results flagged for a closer look

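In 3 members the AICD array lay 2-fold or more above the vector array in 1 state and 2-fold or more below it in another. Each such value rests on 1 array per line, and the difference between the states was not tested. T-cadherin (Cdh13) lay 1.24 higher in undifferentiated AICD cells, and its log2 difference after replating was -2.21. Fat4 lay 1.75 higher in AICD aggregates, and its difference after replating was -1.1; a second Fat4 probe gave 1.79 and -1.04. Pcdh19 lay 3.1 higher in undifferentiated AICD cells, and its difference in aggregates was -1.07; a second Pcdh19 probe gave 0.19 and -0.74.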

How the results depend on the processing

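The line comparison called 47 genes, 76 with normexp background correction (chosen after seeing the data), 0 with no filter on dim probes, 176 within slide 2, 16 without the state term and 0 to 138 when 1 array was left out (138 without the vector undifferentiated array, 0 without any 1 of the 4 later arrays). It called 0 members, but 1 with probes well above background on all 6 arrays (Pcdh17) and 1 within slide 2 (Pcdh10). The aggregation step called 5633 genes and 42 members; it called 27 members with the filter on all 6 arrays, which tests fewer members, and with 1 array left out 0 to 4348 genes and 0 to 40 members (0 without either aggregated array, 1015 genes and 25 members without the vector undifferentiated array, 3620 genes without the AICD undifferentiated array). The replating step called 0 genes, but 1402 genes and 26 members with normexp, 733 genes and 14 members with the filter on all 6 arrays, and 64 genes within slide 2; the cause was not tested. The course called 8214 genes, and 1793 to 6539 with 1 array left out (1793 without the vector differentiated array, 4668 without the vector undifferentiated array). With normexp, 295 and 290 genes stood 2-fold or more above and below in undifferentiated AICD cells (3 members below), 298 and 197 in aggregates (2 members below), and 345 and 320 after replating. The Pcdh19 line estimate of 0.56 became -0.71 within slide 2 and ran from -0.71 to 1.38 with 1 array left out; with normexp the Pcdh8 replating estimate became -0.05 and the Pcdhga1 course estimate -0.02. Member calls lost on aggregation numbered 13 with normexp, 7 with no filter, 4 with quantile scaling and 2 with the mean of probes. No paired analysis was possible because the labels give no replicate numbers; the line comparison already holds the state as a block. Signals near background limit the folds of the 28 members detected on 2 to 5 arrays.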
